A study of Peromyscus californicus with 17 samples.

Results

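The genes of valine and branched-chain amino acid breakdown were examined in the lungs of 17 male *P. californicus*, a monogamous deer mouse. The 9 genes, of 27786 in the table, were Bcat2, Bckdha, Bckdhb, Dbt, Acad8, Hibch, Hibadh, Pcca and Pccb. Hibadh was chosen on its measured values, since it differs between virgin and bond-disrupted animals in the FPKM as listed, and the other 8 were chosen for their place in the same pathway. RNA sequencing gave 1 library per animal. The 6 bonded animals (B1 to B6) had been paired for about 4 months. The 6 bond-disrupted animals (BD1 to BD6) had been paired for the same time, were then removed from the mating cage, and were sampled on day 7. Virgins of about the same age (V2 to V6, 5 animals) were housed in groups. All animals were adult males of a genetically diverse stock. Equal numbers mark families: siblings sit in different groups, and V3 and V4 are cousins of their namesakes. Bonded animals differed from bond-disrupted ones in the presence of a partner at sampling, and virgins differed from both in housing as well as in mating history.

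Valine, leucine and isoleucine are broken down in mitochondria. Bcat2 moves the amino group off all of them, and the branched-chain keto acid dehydrogenase complex, built from Bckdha, Bckdhb, Dbt and the shared subunit Dld, commits the carbon skeletons to oxidation. Acad8, Hibch and Hibadh then act in turn on the valine skeleton, and Hibadh oxidises 3-hydroxyisobutyrate, a valine intermediate that cells can release. Valine and isoleucine both end in propionyl-CoA, which Pcca and Pccb, the subunits of propionyl-CoA carboxylase, pass on towards the citric acid cycle. This pathway is best known from muscle, fat, liver and kidney.

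FPKM, the fragments per 1000 bases of gene and per 1000000 mapped fragments, depend on the length that divides the reads, and in the listed table this length was not the gene's own. The reads of the first column were divided by the length of the gene 1 row above, and each later column by the length of the gene 1 row further up. For Hibadh, the divisors were 945 to 1497 bases in bonded and 415 to 1335 bases in bond-disrupted animals. They were 4573 bases for V3, 3412 for V4, 4396 for V5 and 5860 for V6. Listed FPKM of Hibadh had a lowest, median and highest value of 35.3, 43.9 and 52.2 in bonded, and of 41.5, 55.0 and 123 in bond-disrupted animals. In virgins they were 41.5 (V2), 10.2 (V3), 13.8 (V4), 11.7 (V5) and 8.79 (V6). The 4 virgins V3 to V6, divided by these long lengths, were the low ones, and V2 was level with BD4. The highest animal, BD6, was the one with the shortest divisor.

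**Figure D1:**
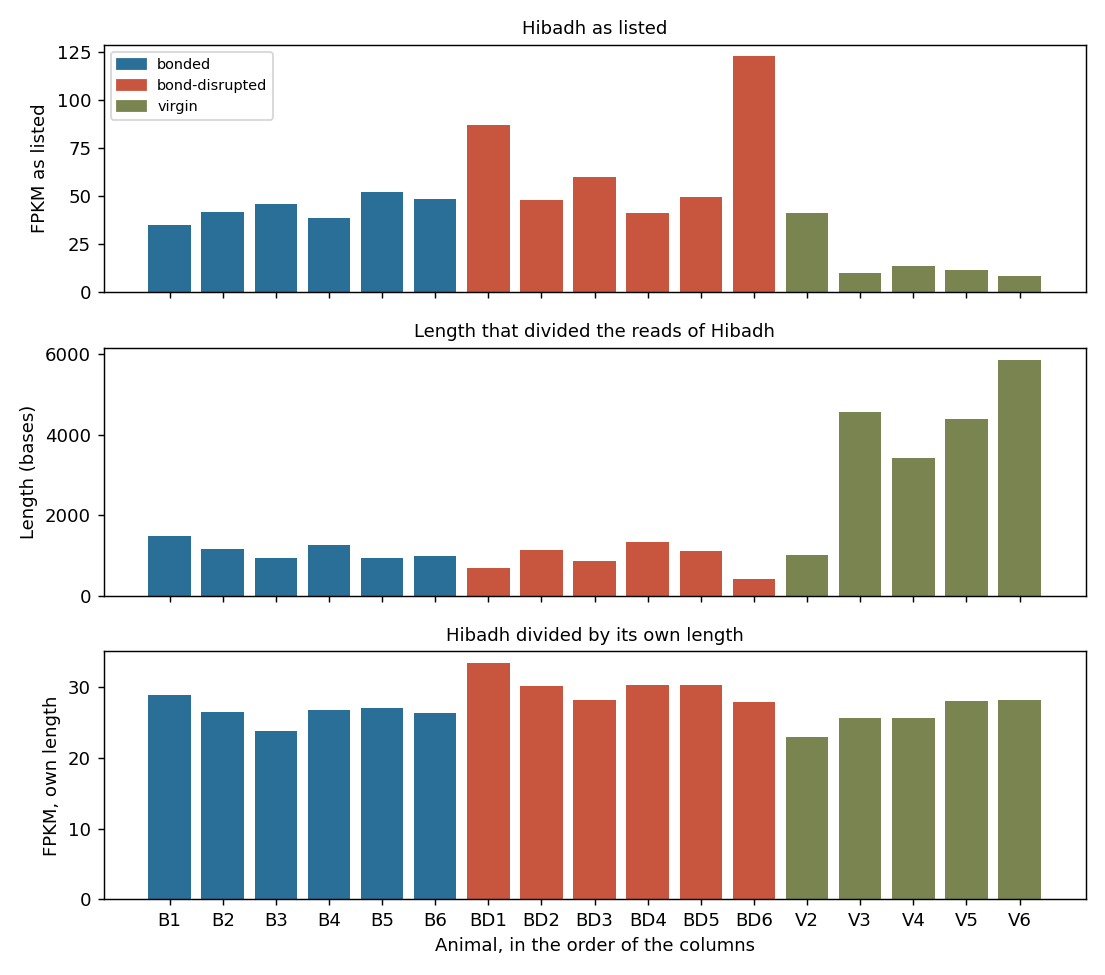
Hibadh in each of the 17 animals, in the order of the columns: FPKM as listed (top), the length in bases that divided its reads (middle) and FPKM with its own length of 1829 bases (bottom), as bars coloured by group. The listed values are lowest, at 8.79 to 13.8, in V3 to V6, where the length is 3412 to 5860 bases, while the values with its own length stay between 23.0 and 33.4.

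Dividing the reads of Hibadh by its own 1829 bases gave 23.8 to 28.9 FPKM in bonded (median 26.7), 27.9 to 33.4 FPKM in bond-disrupted (median 30.2) and 23.0 to 28.2 FPKM in virgin animals (median 25.7). The means were 26.6 ± 1.65 (SD, n = 6), 30.0 ± 1.97 (n = 6) and 26.1 ± 2.13 FPKM (n = 5). Every group overlapped with the others, and 3 of the 5 virgins lay below the lowest bond-disrupted animal. The log2 difference between virgin and bond-disrupted animals was −2.06 as listed and −0.20 with the own length. Both are given as a description. Hibadh was chosen on its virgin and bond-disrupted values, which enter every comparison of groups, so that no test of it between groups is given.

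The other 8 genes had been divided by lengths that spanned still more in 7 cases, from 14.1-fold between the shortest and the longest for Hibadh to 154-fold for Hibch (107 to 16478 bases). Bcat2 was the exception at 8.69-fold. Their listed FPKM ranged accordingly, by 7.56-fold over the animals for Bcat2 and by 118-fold for Hibch. With own lengths, the highest animal stood 1.36-fold (Pcca) to 1.68-fold (Bckdhb) above the lowest. All 153 recovered values of the 9 genes were whole numbers of reads to within 1.36e-06 of a read, and they ran from 462 to 4641 reads. The lengths had been searched for by this property, so that it is not an independent check of them. The own length of Bckdha had 14 of its 16 values whole. The SD between animals on the log2(FPKM + 1) scale was 0.79 to 2.1 as listed, and 0.09 to 0.17 with own lengths. Over all 15201 genes with 1 FPKM or more in any animal, the median SD with own lengths was 0.21. Results are given on own-length FPKM unless stated.

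Bckdha, the alpha subunit of the dehydrogenase, had the largest listed difference between bond-disrupted and bonded animals among the 9 genes. Its listed FPKM were 15.2 to 119 in bonded (median 51.3), 6.26 to 17.5 in bond-disrupted (median 10.6) and 9.32 to 81.7 in virgin animals (median 22.5). The log2 difference of bond-disrupted from bonded animals was −2.14 as listed (SE 0.54, limma unadjusted p = 0.000941, adjusted p = 0.211). The reads had been divided by 4057 to 10867 bases in bond-disrupted and by 584 to 4785 bases in bonded animals. With its own 1704 bases, Bckdha was at 38.7 to 42.7 FPKM in bonded, 39.9 to 55.9 FPKM in bond-disrupted and 37.9 to 49.2 FPKM in virgin animals. The difference was then 0.10 (SE 0.08), in the opposite direction and within the spread between animals (limma unadjusted p = 0.270). Without BD2, the highest animal, it was 0.03.

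Expressed per length, the 9 genes spanned from 43.5 to under 1 FPKM. Bckdha was highest at 43.5 ± 4.61 FPKM (SD, n = 17). Pccb followed at 29.3 ± 2.61, Hibadh at 27.7 ± 2.55, Hibch, the hydrolase that frees 3-hydroxyisobutyrate, at 22.3 ± 2.43 and Dbt, the acyltransferase core of the complex, at 14.4 ± 1.80. Bcat2 was at 11.2 ± 1.41, Pcca at 8.25 ± 0.714, Acad8, the isobutyryl-CoA dehydrogenase, at 5.16 ± 0.478 and Bckdhb, the beta subunit of the dehydrogenase, at 0.793 ± 0.108 FPKM. All 8 pairs of neighbours in this order differed (two-sided permutation test by sign flips within animals, 100000 resamples, adjusted over the 8 pairs). The neighbours were taken from the means of the same animals. The test measures the spread between animals and not an error in a recovered length, which all animals share. The smallest gap was between Pccb and Hibadh, at 1.06-fold, in that direction in 13 of 17 animals (adjusted p = 0.0106). The recovered length of Hibadh was 1829 bases, and its estimate from other rows 1761. For Pccb they were 1787 and 1766. The other 7 pairs kept their order in 17 of 17 animals, with adjusted p from 4e-05 to 5e-05. The order was the same in every one of the 17 fits that left out 1 animal. In the values as listed, no neighbours differed and 2 of the 9 genes held the same rank.

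Partner subunits were not at equal levels. Bckdha had a recovered length of 1704 bases and Bckdhb of 20211 bases, so that a median of 3188 and 700 reads per animal became 43.5 and 0.793 FPKM. The level of Bckdhb therefore rests on a long gene model, and per read the gap between these subunits was smaller. Pccb had 1787 bases and a median of 2368 reads, and Pcca 3567 bases and 1334 reads.

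**Figure D2:**
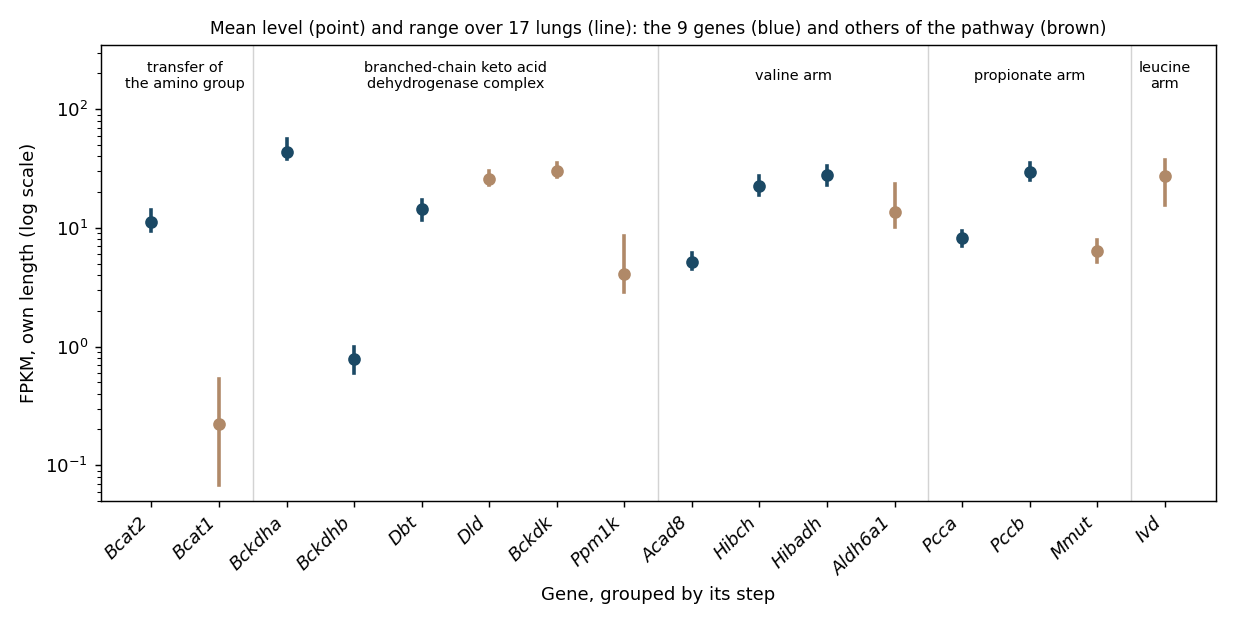
Own-length FPKM on a log scale for the 9 genes (blue) and 7 other genes of the pathway (brown), grouped by step, with the mean (point) and the range (line) over 17 lungs. Levels run from 0.225 FPKM for Bcat1 to 43.5 FPKM for Bckdha, and Bckdhb lies apart from the other 8 of the 9 genes.

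Other genes of the pathway gave context to these levels. Bcat1, the cytosolic aminotransferase, was at 0.225 ± 0.146 FPKM (SD, n = 17) against 11.2 for the mitochondrial Bcat2. Dld was at 25.8 ± 1.99 FPKM. Bckdk, the kinase that switches the dehydrogenase complex off, was at 30.4 ± 2.57 FPKM, and Ppm1k, the phosphatase that switches it on, at 4.07 ± 1.31 FPKM. Aldh6a1, which takes over the product of Hibadh, was at 13.7 ± 3.15 FPKM and Mmut, the mutase downstream of propionyl-CoA carboxylase, at 6.45 ± 0.622 FPKM. Ivd, the isovaleryl-CoA dehydrogenase of the leucine arm, was at 27.4 ± 6.10 FPKM.

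**Figure D3:**
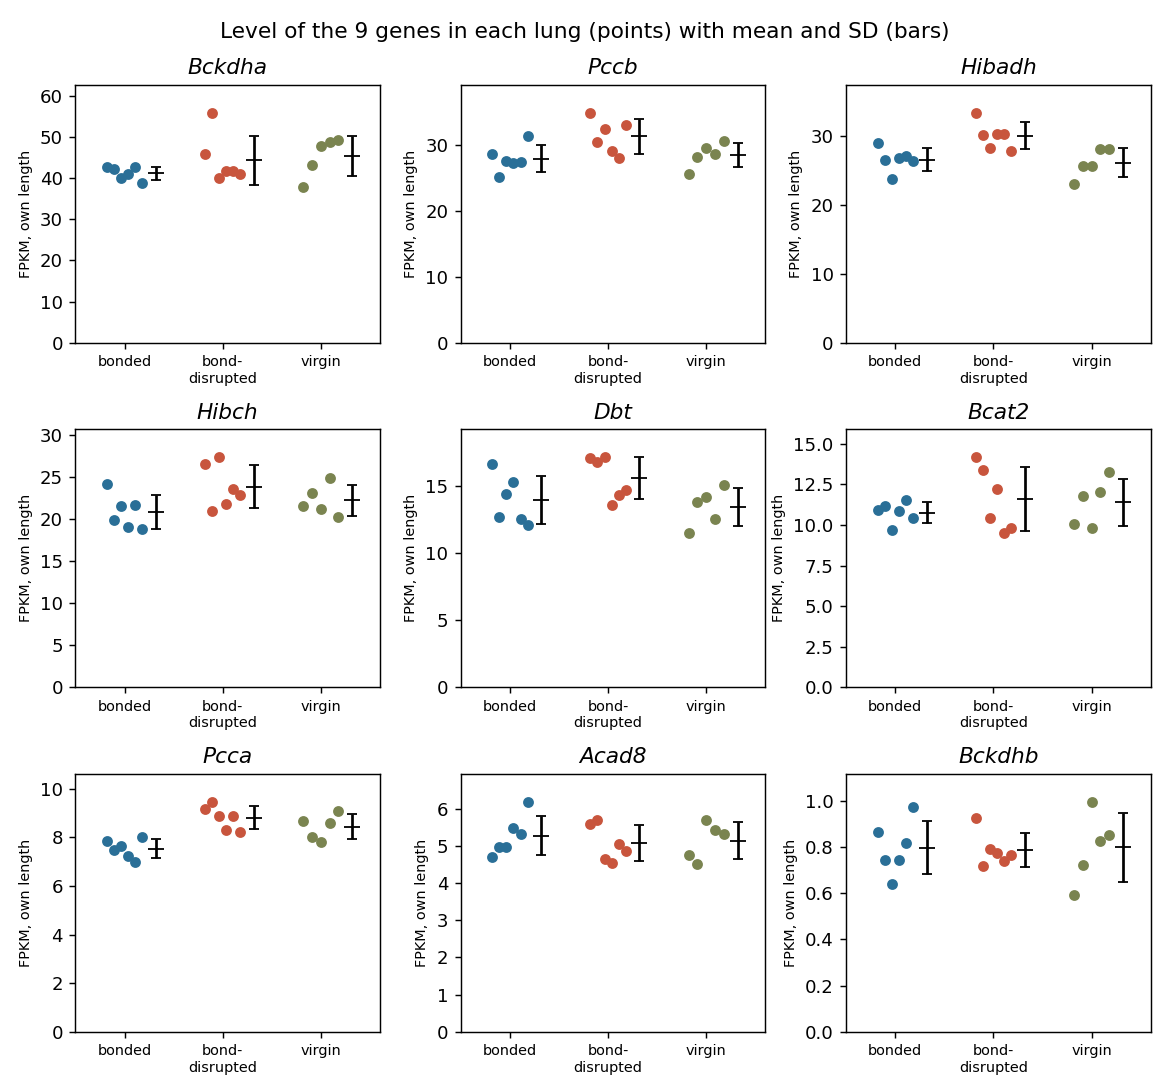
Own-length FPKM of the 9 genes in each lung (points, coloured by group) with the group mean and SD (black bars), in order of mean level. For Pcca, the 6 bond-disrupted animals (8.20 to 9.47) all lie above the 6 bonded animals (6.97 to 8.02), while these 2 groups overlap for the other 8 genes.

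Bond-disrupted and bonded animals were compared first. A gene was called where limma on log2(FPKM + 1) gave a 2-fold change with an adjusted p below 0.1. Of the 9 genes 7 were tested, all but Hibadh and Bckdhb. Of these 0 were called, and 0 of 15201 genes were called in all (0%). At an unadjusted p under 0.05, 3 of the 7 were found, namely Pcca, Pccb and Hibch, against 880 of all genes (5.79%). All 3 were higher in bond-disrupted animals, as were 423 of all genes at that p (2.78%). The median log2 difference was 0.15 over the 7 genes and 0.0052 over all genes, and the mean of log2(FPKM + 1), by which means are called higher or lower from here on, was higher in bond-disrupted animals for 6 of the 7 genes and for 51.7% of all genes. In whole lung, a change in the share of cells that use a gene and a change in its RNA per cell cannot be told apart. Bckdhb stayed under 1 FPKM in every animal and was left out by the filter. None of the 8 genes other than Hibadh was called in the values as listed either, where 40 genes were called in all (0.215%).

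The gene with the smallest p was Pcca, the biotin-carrying subunit of propionyl-CoA carboxylase. It was at 6.97 to 8.02 FPKM in bonded (median 7.57), 8.20 to 9.47 FPKM in bond-disrupted (median 8.88) and 7.81 to 9.08 FPKM in virgin animals (median 8.59). All 6 bond-disrupted animals were above all 6 bonded ones, which held for 22 of the 15201 genes (0.145%). The log2 difference was 0.20 (SE 0.05, 95% interval 0.08 to 0.32, limma unadjusted p = 0.00207, adjusted p = 0.829), a mean 14.9% higher on the FPKM + 1 scale. The adjusted p lay between 0.458 and 0.935 over 11 settings on corrected values.

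For Hibadh, given as a description, the log2 difference was 0.17. All 6 bond-disrupted animals were above the bonded median and 4 were above every bonded animal. When the length effect was removed by a least-squares fit, which does not use whole reads, the difference was 0.00115. With that fit Hibch differed by 0.072, Pcca by 0.18 and Pccb by 0.18.

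Pccb, the other carboxylase subunit, was at 25.1 to 31.5 FPKM in bonded (median 27.5) and 27.99 to 34.9 FPKM in bond-disrupted animals (median 31.5). The groups overlapped, and the log2 difference was 0.16 (SE 0.07, limma unadjusted p = 0.0327, adjusted p = 0.854). Hibch was at 18.8 to 24.2 FPKM in bonded (median 20.7) and 21.0 to 27.4 FPKM in bond-disrupted animals (median 23.2), with a log2 difference of 0.18 (SE 0.08, limma unadjusted p = 0.0362, adjusted p = 0.862). Its 2 highest animals were BD3 and BD1, and the other 4 lay within the range of the bonded animals.

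For the other genes the intervals of the difference included 0. Dbt was at 12.1 to 16.7 FPKM in bonded and 13.6 to 17.2 FPKM in bond-disrupted animals, a log2 difference of 0.15 (95% interval −0.04 to 0.35). For Bcat2 it was 0.08 (−0.12 to 0.29), and ran from 0.03 without BD1 to 0.13 without BD5, with bond-disrupted animals more spread out, at 9.49 to 14.2 FPKM, than bonded ones, at 9.67 to 11.5 FPKM. Acad8 was the only one of the 7 tested genes with a lower mean in bond-disrupted animals, a difference of −0.05 (−0.20 to 0.11). Without 1 animal this difference ran from −0.077 to −0.0075. Bckdhb, in a fit with no filter, differed by −0.01 (−0.12 to 0.11).

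The 3 genes did not rest equally on single animals. Pcca had an unadjusted limma p under 0.05 in all 17 fits that left out 1 animal, with the highest p at 0.00648 (without B5). Hibch had it in 12 of these fits and Pccb in 10. The count of 3 was 1 without B2, without B4, without BD1 or without BD3, and Pcca was the gene left each time. It was also 1, Pcca, with limma-voom on the recovered reads.

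**Figure D4:**
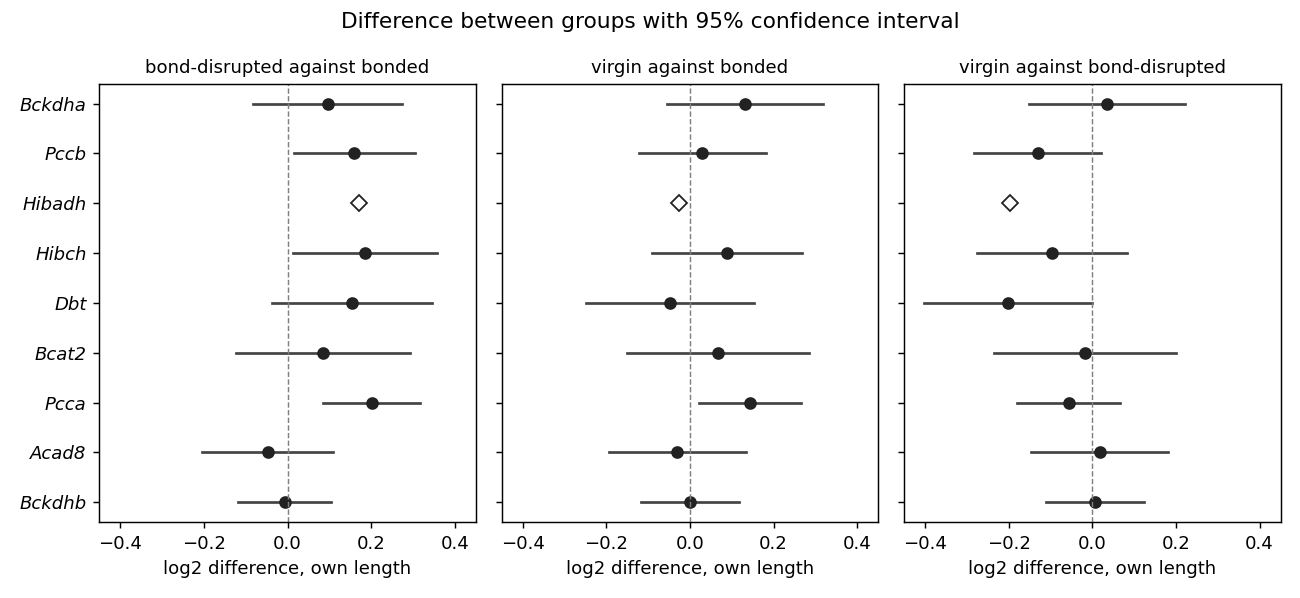
Log2 difference of each gene (rows) in the 3 comparisons (panels) on the log2(own-length FPKM + 1) scale, with 95% confidence intervals from limma; open diamonds are Hibadh, shown without an interval because it was chosen on these animals. In bond-disrupted against bonded animals the intervals of Pcca, Pccb and Hibch lie above 0, and the largest difference in size among the genes with an interval is −0.20, for Dbt in virgin against bond-disrupted animals.

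Since B1 to B6 and BD1 to BD6 of equal number are siblings, the difference was also taken within each family. Pcca was higher in the bond-disrupted brother in 6 of 6 families, by 0.03 to 0.31 on the log2 scale (median 0.19). Hibch was higher in 6 of 6, by 0.07 to 0.33 (median 0.16), and Pccb in 6 of 6, by 0.03 to 0.28 (median 0.16). Dbt and Bckdha were higher in 5 of 6 families, Bcat2 in 4, Bckdhb in 3 and Acad8 in 2. Of the 15201 genes, 332 were higher in all 6 families (2.18%). For Hibadh, not counted with these because of how it was chosen, the differences were 0.08 to 0.24. With the replicate number as a block in the limma fit, Pcca, Pccb and Hibch had an unadjusted p under 0.05.

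**Figure D5:**
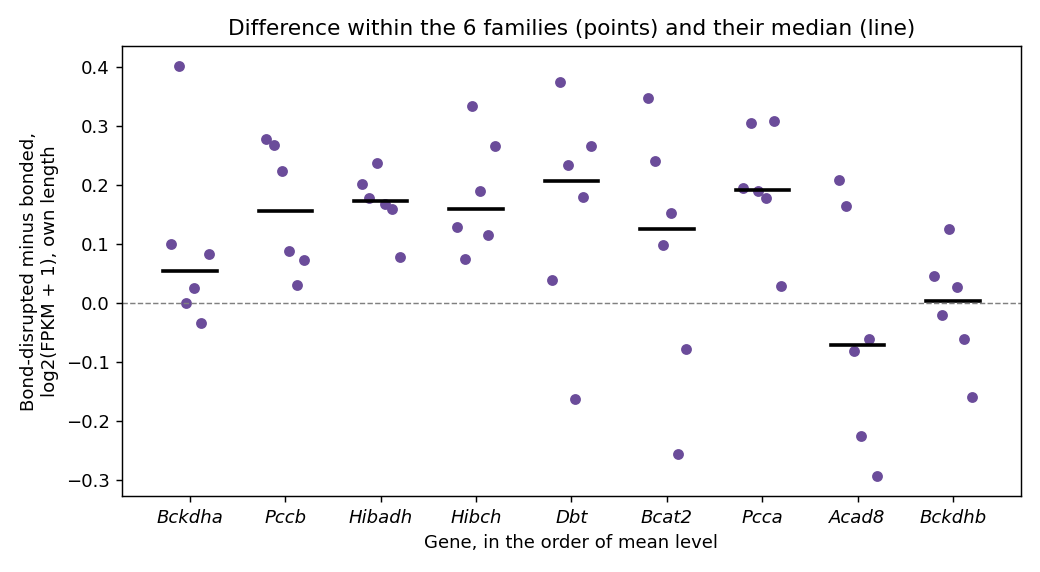
Difference between the bond-disrupted and the bonded brother of each of the 6 families, in log2(own-length FPKM + 1) (points), with the median (line), for the 9 genes in order of mean level. All 6 points lie above 0 for Pccb, Hibadh, Hibch and Pcca, and points lie on both sides of 0 for Bckdha, Dbt, Bcat2, Acad8 and Bckdhb.

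Virgins and bonded animals were compared next, and none of the 7 genes tested was called (0 of 15201 genes in all, 0%). As listed, 0 of the 8 genes other than Hibadh were called, against 113 of all genes (0.607%). At an unadjusted p under 0.05, 1 of the 7 was found, against 3.47% of all genes. This was Pcca, whose mean was 0.14 higher in virgins on the log2 scale (SE 0.06, limma unadjusted p = 0.0233, adjusted p = 1), and 4 of the 5 virgins were above the highest bonded animal. The p was over 0.05 without B5 or without V6 (highest 0.0687) and with limma-voom (0.0651). Hibch differed by 0.09 (95% interval −0.09 to 0.27), Bckdha by 0.13 (−0.06 to 0.32) and Pccb by 0.03 (−0.12 to 0.18). Without 1 animal these differences ran from 0.048 to 0.13, from 0.10 to 0.19 and from 0.00076 to 0.066. Within families, Hibch was higher in the virgin in 5 of 5, by 0.10 to 0.20 (median 0.11), and Pcca in 5 of 5, by 0.06 to 0.27 (median 0.16), as were 669 of all genes (4.4%). With the replicate number as a block, Hibch differed by 0.13 (limma unadjusted p = 0.0725) and Pcca by 0.15 (limma unadjusted p = 0.0307). Hibadh, as a description, differed by −0.03, and by −0.23 with the least-squares fit. The bonded animals are shared with the comparison above.

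Virgins and bond-disrupted animals were compared for the same 7 genes. None was called (0 of 15201 genes in all, 0%), and as listed none of the 8 genes other than Hibadh was among the 35 genes called (0.188%), a count to which Hibadh belonged. At an unadjusted p under 0.05, 1 of the 7 was found, against 4.19% of all genes. This was Dbt, at 11.6 to 15.1 FPKM in virgins (median 13.8) and 13.6 to 17.2 FPKM in bond-disrupted animals (median 15.8). The log2 difference was −0.20 (SE 0.09, limma unadjusted p = 0.0492, adjusted p = 0.952). Within families, Dbt was lower in the virgin in 3 of 5 and higher in 2, with differences of −0.51 to 0.06 (median −0.18). This p was under 0.05 in 7 of the 17 fits that left out 1 animal, and it was above 0.05 with the replicate number as a block (0.103) and with the least-squares fit (0.359). Pccb differed by −0.13 (95% interval −0.28 to 0.02), and by −0.23 with the least-squares fit (limma unadjusted p = 0.0181), the only 1 of 11 settings in which its p was under 0.05. Pcca differed by −0.06 (−0.18 to 0.07).

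The further genes of branched-chain amino acid handling were read from 6 lists: transport, the first shared steps with their regulators, and the valine, leucine, isoleucine and propionate arms. Of 30 genes, 28 could be tested, and none passed an adjusted p under 0.1 in any comparison (lowest 0.829). None of all 15201 genes passed it either (lowest 0.52). In bond-disrupted against bonded animals, 22 of the 28 had a higher mean, against 51.7% of all genes. Of the 28, 4 had an unadjusted p under 0.05, against 5.79% of all genes, and all 4 were higher in bond-disrupted animals (2.78% of all genes). The median log2 difference was 0.08, and 0.0052 over all genes. The largest was Slc43a2, a carrier of large neutral amino acids, with a log2 difference of 0.48 (SE 0.15, limma unadjusted p = 0.00660). Ppm1k differed by 0.38 (SE 0.15, limma unadjusted p = 0.0258), Slc7a8, another carrier of neutral amino acids, by 0.37 (SE 0.15, limma unadjusted p = 0.0291) and Aldh6a1 by 0.34 (SE 0.14, limma unadjusted p = 0.0255). Slc43a2 was at 12.7 to 20.9 FPKM in bonded, 18.4 to 32.4 FPKM in bond-disrupted and 13.4 to 21.5 FPKM in virgin animals. Aldh6a1 was at 10.2 to 14.1 FPKM in bonded and 11.1 to 23.3 FPKM in bond-disrupted animals. Bckdk had means of 30.4, 30.5 and 30.4 FPKM in bonded, bond-disrupted and virgin animals and a log2 difference of 0.01 (SE 0.08) between the first 2. Dld differed by 0.10 (SE 0.06), Mmut by 0.08 (SE 0.08) and Ivd by 0.27 (SE 0.18).

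In virgins against bonded animals, 19 of the 28 further genes had a higher mean, against 52.1% of all genes. An unadjusted p under 0.05 was found for 2, against 3.47% of all genes, namely Slc7a5, a carrier of large neutral amino acids (0.40), and Abat (0.35). In virgins against bond-disrupted animals 10 of 28 had a higher mean, against 51.8% of all genes, and 3 had such a p, against 4.19% of all genes: Slc43a2 (−0.39) and Dld (−0.15), with a lower mean in virgins, and Slc7a5 (0.35), with a higher one. Aldh6a1, Mmut, Ivd, Bckdk and Ppm1k had no unadjusted p under 0.05 in either comparison.

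Genes of mitochondrial content and of cell types were read beside these values. Of 10 mitochondrial content genes 8 were measured, and all 8 had a higher mean in bond-disrupted than in bonded animals, against 51.7% of all genes. Their median log2 difference was 0.07, against 0.0052 over all genes, and none had an unadjusted p under 0.05. In virgins against bond-disrupted animals 0 of the 8 had a higher mean (median −0.07), against 51.8% of all genes. In virgins against bonded animals 5 of the 8 had a higher mean (median 0.01), against 52.1% of all genes. The summed FPKM of the 8 genes were 666 to 843 in bonded, 723 to 851 in bond-disrupted and 715 to 811 in virgin animals. The lung identity of the samples was plain, with Sftpc at 19870 ± 4547 FPKM (SD, n = 17) and Scgb1a1 at 92790 ± 34480 FPKM. The 6 measured markers of type 2 alveolar cells all had a higher mean in bond-disrupted than in bonded animals, against 51.7% of all genes. Their median log2 difference was 0.22, against 0.0052 over all genes. Sftpb, a surfactant protein, had an unadjusted limma p of 0.00628 and an adjusted p of 0.829. In virgins against bonded animals all 6 also had a higher mean (median log2 difference 0.09), against 52.1% of all genes. Sftpb was 0.39 higher there on the log2 scale (limma unadjusted p = 0.0145). A higher mean in virgins also held for 4 of 4 endothelial, 3 of 3 liver, 3 of 3 red cell precursor and 2 of 2 club markers. It held for 3 of 5 type 1, 3 of 5 macrophage and 2 of 4 ciliated markers. For cardiac muscle it was 3 of 7, for skeletal muscle 1 of 2 and for fat 1 of 3. The summed FPKM of the 6 type 2 markers were 15590 to 26610 in bonded, 15770 to 33820 in bond-disrupted and 18900 to 31480 in virgin animals. Cardiac muscle, with 7 of 8 markers measured and a lower mean for all 7 in bond-disrupted animals, summed to 52.8 to 547 FPKM in bonded, 92.3 to 306 FPKM in bond-disrupted and 128 to 407 FPKM in virgin animals. Ciliated cells had a lower mean for 4 of 4 markers in bond-disrupted than in bonded animals (median log2 difference −0.24) and a higher one for 4 of 4 in virgin than in bond-disrupted animals (0.25), with summed FPKM of 237 to 412 in bonded, 201 to 382 in bond-disrupted and 211 to 495 in virgin animals. Red cell precursors had a higher mean for 3 of 3 markers in bond-disrupted than in bonded animals (0.25), with sums of 3.86 to 31.3, 1.04 to 18.8 and 6.99 to 16.8 FPKM in bonded, bond-disrupted and virgin animals and medians of 8.01, 12.7 and 7.73 FPKM. Macrophage markers had a higher mean of log2(FPKM + 1) for 3 of 5 (median log2 difference 0.19), and a higher mean FPKM for all 5, with sums of 87.7 to 239, 49.6 to 259 and 79.1 to 178 FPKM and medians of 118, 159 and 131 FPKM. Of the 2 club cell markers measured, 0 had a higher mean in bond-disrupted than in bonded animals (−0.34), with sums of 49400 to 131300, 61650 to 119000 and 53860 to 172900 FPKM. For type 1 alveolar cells 3 of 5 markers had a higher mean in bond-disrupted than in bonded animals, with sums of 1841 to 3286, 2258 to 3909 and 2197 to 3084 FPKM, and for endothelium 2 of 4, with sums of 392 to 514, 323 to 528 and 416 to 554 FPKM. The sums were 0.962 to 5.37, 1.31 to 22.6 and 1.25 to 3.62 FPKM for skeletal muscle (1 of 2 tested markers higher), 75.9 to 110, 85.5 to 131 and 73.8 to 130 FPKM for fat (2 of 3) and 7.96 to 27.1, 8.56 to 32.7 and 8.49 to 32.1 FPKM for liver (2 of 3). Apart from Sftpb, no marker had an unadjusted limma p under 0.05 in any comparison. No marker, Sftpb included, passed an adjusted p under 0.1, nor did any of the 15201 genes tested. No measured marker was at 0 in every animal of a group. The part of any of these in the differences of the 9 genes was not tested.

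Subunits of one complex and enzymes of neighbouring steps were compared across the 17 animals on the log2(FPKM + 1) scale, in 6 pairs. Of the 5 pairs without Hibadh, which were tested, none passed an adjusted p under 0.05. Pcca and Pccb had the highest correlation (Pearson r = 0.513, permutation p = 0.0355, adjusted 0.178; Spearman rho = 0.564, p = 0.0203, adjusted 0.102). Without B5 and BD2, the animals farthest from the median of Pcca, r was 0.496, with group means subtracted it was 0.228, and with the least-squares fit it was 0.0061. Hibch and Hibadh, described without a test, had r = 0.445 (rho = 0.473), which was 0.259 without BD1 and BD3, 0.215 with group means subtracted and −0.378 with the least-squares fit. Acad8 and Hibch had r = −0.393 (permutation p = 0.119, rho = −0.468), and −0.185 without B6 and BD2. Among the subunits of the dehydrogenase, r was 0.367 for Bckdha and Dbt (permutation p = 0.150, rho = 0.245), 0.276 for Bckdha and Bckdhb (p = 0.283, rho = 0.302) and 0.167 for Bckdhb and Dbt (p = 0.520, rho = 0.0882). Without the 2 animals farthest from the median these became 0.159, 0.531 and −0.0544. Over all 36 pairs of the 9 genes, r ran from −0.393 to 0.648 with a median of 0.385, and 33 (91.7%) were above 0. Over all pairs of the 13524 genes that averaged 1 FPKM or more, the median r was 0.003 and 50.3% were above 0. Nothing particular to these genes is read from it. The pairs share the 17 libraries and their depths.

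The genes whose level was most like that of Hibadh over the 17 animals were Ndufa7 (r = 0.854), a subunit of respiratory complex I, Psmc1 (0.831) and Psmd7 (0.821), both of the regulatory particle of the proteasome, Rbbp7 (0.828), a histone-binding protein, and Unc50 (0.818). They were the highest of 13523 genes with a mean of at least 1 FPKM, whose median r was 0.0285. Genes picked as the top of so many over 17 animals can reach a high r by chance, and these were not tested. Among the other members of the pathway, r with Hibadh was highest for Pccb (0.589), Dbt (0.584) and Bcat2 (0.581) and lowest for Acad8 (0.134). Pccb, the closest of them, ranked 305th.

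The highest and lowest levels of the 9 genes were counted by animal. BD1 had the highest level of 3 of the 9 genes, BD2 and BD3 of 2 each, and B6 and V4 of 1 each. Of the 13524 genes averaging 1 FPKM or more, 15.6% were highest in BD1, 9.97% in BD2 and 5.17% in BD3. V2 had the lowest level of 4 of the 9 genes and of 8.35% of all genes. The depths of these libraries, in units of 1000000 reads, were 30.8 to 68.2 in bonded, 43.9 to 59.4 in bond-disrupted and 38.0 to 44.9 in virgin animals, and the deepest was B3.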

How the data were processed

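RNA from 17 lungs was sequenced with directional libraries, 1 per animal. Per the submitters' processing notes, the tools were FastQC, Trim Galore 0.4.5, STAR 2.7.2, SAMtools 1.5 and featureCounts of Subread 1.5.3. The genome build is not given in the sources used here. The authors deposited FPKM per gene and animal for 27786 genes in 17 columns, with 0 columns left unused.

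The depth of each library and the lengths behind the values were solved together, by searching for the numbers that turn the listed values back into whole reads. A length was accepted where at least 60% and at least 4 of its values were whole and it did not exceed the RefSeq gene of assembly ASM782708v3. Multiples of a length were settled by the neighbouring rows and a least-squares fit. Of 27787 lengths 26544 were solved. The depths were first found from the RefSeq lengths of small RNAs. That 1520 of 1522 solved small RNA lengths equal those of RefSeq is therefore not an independent check. Of 211832 recovered values under 1000 reads, 98.3% lay within 0.01 of a whole number, which the search aimed at. Recovered reads were 0.969 to 1.03 of the depth. They were below the depth in B2 to B6, BD6 and V2 to V4. In B1, BD1 to BD5, V5 and V6 they were above it, so that this ratio differed along the groups compared. Whether a read pair counts as 1 or 2 is not fixed by the values, so depths may be off by that factor. Own-length FPKM were then computed for 25642 genes. All 9 member symbols matched RefSeq; no sequences are shown, because none were used here.

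Own-length FPKM were tested as log2(FPKM + 1) with limma 3.58.1 in R 4.3.3, over 15201 genes whose highest animal had 1 FPKM or more, with the 3 groups in one fit, two-sided, Benjamini-Hochberg adjusted. Fold changes on this scale understate those of low genes. Bckdhb failed the filter and was fitted without it. Hibadh, chosen on the values of virgin and bond-disrupted animals, was to be tested in the other comparisons too, but these share those animals, and it is described without a test in all 3. Its pair with Hibch was left without a test too, and the correlations were adjusted over the other 5 pairs. Orders and correlations used 100000 permutations in Python 3.11.15 with numpy 2.4.6 and scipy 1.17.1, and figures matplotlib 3.10.9. The recovery of lengths and the limma fits were tested on simulated data.

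The members and all gene lists were chosen with earlier results of these data known. The 9 members, 6 genes of the pathway (Bckdk, Ppm1k, Dld, Aldh6a1, Mmut and Ivd), genes past the adjusted p, and the 5 genes most correlated with Hibadh were to be named; the others named here (Bcat1, Slc43a2, Slc7a8, Slc7a5, Abat, Sftpb, Sftpc and Scgb1a1) were named after their values were seen. Alternatives were the FPKM as deposited, a least-squares removal of the length effect, a pseudocount of 0.1, no filter or a mean of at least 1 FPKM, a trend, a median-ratio factor, quantile normalization, only the 2 groups compared, limma-voom on recovered reads with a mean of at least 10, a block for the replicate number, a stricter adjusted p of 0.05 and leaving out each animal. The numbers mark siblings or cousins in the study. Deviations from group means correlated above 0.1 in 6 of 6 B and BD sibling pairs (0.109 to 0.415), and in 1 of the 10 pairs with a virgin. The latter ran from −0.335 (B2 and V2) to 0.142 (B6 and V6). No values are given for pairs of unequal number, so that family likeness is not read from these counts.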

Additional observations from a re-analysis of the deposited data

Results flagged for a closer look

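In 27 groups, 3 for each of the 9 genes, the highest and the lowest animal were compared with the rest of their group. Chance sets an animal apart in about 1 in 20 groups, and 2 were found. Bckdha was at 55.9 FPKM in BD2, far above the next bond-disrupted animal at 45.8 FPKM. Without BD2, the log2 difference between bond-disrupted and bonded animals was 0.03 in place of 0.10. Bckdhb was at 0.926 FPKM in BD1, above the next bond-disrupted animal at 0.790 FPKM.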

How the results depend on the processing

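Hibadh is not counted in the counts that follow. None of the 7 genes tested was called in any of the 3 comparisons under any of the 12 alternatives or without any 1 of the 17 animals, and Bckdhb was not called in the settings that could test it. Of bond-disrupted against bonded, 3 genes with an unadjusted p under 0.05 became 1 as deposited (Bckdha) or with limma-voom (Pcca), and 1 to 4 without 1 animal (1 without B2, B4, BD1 or BD3). The count was 2 with least squares (Pcca and Pccb), with quantile normalization, where Pccb had a limma p of 0.0563, and with only the 2 groups compared, where Hibch had a limma p of 0.0520. Of virgin against bonded, 1 became 0 as deposited and with limma-voom, and 0 to 2 without 1 animal (0 without B5 or V6, 2 without V2). Of virgin against bond-disrupted, 1 became 0 with a pseudocount of 0.1, with only the 2 groups compared and with the replicate block, stayed 1 with least squares, where Pccb replaced Dbt, and as deposited, where Bckdha did, and was 0 to 2 without 1 animal (0 without B2, B3, B4, B5, BD1, BD2, BD3, V2, V3 or V5, 2 without BD5). The replicate block, by which siblings are paired, left counts of 3, 1 and 0. The cause of these changes was not tested. Limma-voom, which scaled each animal by its recovered reads in place of the depth, moved the median log2 difference of all genes to −0.04, −0.03 and 0.02.

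As deposited, the direction turned between bond-disrupted and bonded animals for Hibch (−0.21), Bcat2 (−0.20), Bckdha (−2.14), Bckdhb (0.24), Dbt (−0.26), Pcca (−0.23) and Pccb (−0.94), between virgin and bonded animals for Hibch (−0.96), Bcat2 (−0.24), Bckdha (−0.75), Acad8 (0.059) and Pccb (−1.25), and between virgin and bond-disrupted animals for Bckdhb (−0.47) and Pcca (0.49). With least squares it turned for Bckdha (−0.012), Dbt (0.079) and Pccb (−0.045) in virgin against bonded, and for Hibch (0.052), Bcat2 (0.026) and Bckdha (−0.075) in virgin against bond-disrupted. The replicate block turned Hibadh (0.00073) in virgin against bonded and Bcat2 (0.014) in virgin against bond-disrupted, limma-voom turned Pccb (−0.0037) in virgin against bonded, and quantile normalization turned Acad8 (−0.014) in virgin against bond-disrupted. Without 1 animal, virgin against bonded ran from −0.057 to 0.017 for Hibadh, −0.087 to 0.0028 for Dbt and −0.062 to 0.010 for Acad8, and virgin against bond-disrupted from −0.069 to 0.040 for Bcat2 and −0.014 to 0.056 for Acad8. As deposited 0 of 8 neighbours in level differed, and r became −0.314 for Bckdha and Dbt, −0.357 for Bckdhb and Dbt and −0.417 for Pcca and Pccb. With least squares, r was −0.378 for Hibch and Hibadh.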
